A study of Homo sapiens with 6 samples.

Results

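The RAS, RAF, MEK and ERK proteins form the kinase cascade that carries growth factor signals from the plasma membrane to the nucleus. RAS proteins are small GTPases that are active when bound to GTP, GTP-bound RAS recruits and activates RAF kinases, RAF phosphorylates MEK, and MEK phosphorylates ERK. The cascade is known as the main growth-promoting pathway of pancreatic ductal adenocarcinoma, and ERK switches on its own inhibitors as a negative feedback. The 7 genes described here were chosen by name as core members of the cascade, and all 7 are among the 16617 genes in the authors' deposited table. They are the RAS genes HRAS and NRAS, the RAF kinase genes ARAF and BRAF, the MEK genes MAP2K1 and MAP2K2, and the ERK1 gene MAPK3.

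Messenger RNA was profiled in the established cell line T3M4, which comes from a human pancreatic ductal adenocarcinoma, in 3 libraries from cells with a control guide RNA (sgControl, labelled WT) and 3 from cells with a guide RNA against METTL13 (sgMETTL13, labelled METTL13 knockdown). METTL13 is a methyltransferase that acts on the elongation factor eEF1A, and the RNA profile was made alongside protein profiles that were not used here. Both groups were grown in serum-containing medium, and the labels do not say whether the cells of a group were 1 clone or a pool, or whether the libraries of a group came from separate cultures, so p-values measure the spread between these libraries, which may be technical. The authors' deposited table gives the average of each group and the authors' own comparison, so the values of single libraries, and the spread of a gene's level within a group, are not analysed here.

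METTL13 itself fell from an average of 39.9 to 5.63 TPM (a transcript level scaled to transcript length and library size) per the authors' deposited table, a log2 fold change of -2.78 with an implied standard error of 0.114 and an adjusted p of 2.5e-127. Average estimated reads summed to 15240866 in sgControl and 15247500 in sgMETTL13 per the authors' deposited table. The labelled cell type was checked with 7 ductal and epithelial markers. All 7 were present in the authors' deposited table at 43.6 to 2107 TPM in sgControl, and their summed TPM was 4783 in sgControl and 4636 in sgMETTL13; SOX9, a ductal transcription factor, fell (log2 fold change -0.28, adjusted p 0.0242). Markers of other cells were near 0 per the authors' deposited table, apart from COL1A1 and CD68. The 2 of 4 acinar, 1 of 4 endocrine and 3 of 3 endothelial markers that are listed summed to 0.810, 0 and 2.04 TPM in sgControl and to 1.96, 0.0833 and 1.44 TPM in sgMETTL13. The 5 of 6 listed fibroblast markers summed to 17.2 TPM in sgControl and 17.3 in sgMETTL13, mostly COL1A1, and the 2 of 5 listed leukocyte markers to 41.5 and 44.6, mostly CD68, with none of these markers called.

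At the level of messenger RNA 1 of the 7 cascade genes passed the test in the sgMETTL13 cells, and by a small amount. HRAS rose 1.21-fold per the authors' deposited table, and 0 of 7 members were called lower, beside 1.08% of all genes. The other 6 members lay between 0.928-fold (MAPK3) and 1.16-fold (MAP2K1), and none of them passed the test. A gene is called here when the adjusted p of the authors' deposited comparison is under 0.05. By that rule 1 of 7 members was called, beside 3.8% of all 16617 genes, and 1 of 7 was called higher, beside 2.73% of all genes. All 7 members lie above the median of 205 mean reads, where 7.04% of 8309 genes were called and 5.21% were called higher, so a single call among 7 genes is no result about the cascade as a whole. The median log2 fold change of the 7 was 0.11, beside 0.00 over all genes and 0.01 over the 8309 genes in the upper part by read count, and 6 of 7 lay above 0, as did 8339 of 16617 genes. In this bulk RNA a change in the number of expressing cells and a change in RNA per cell cannot be told apart.

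**Figure D1:**
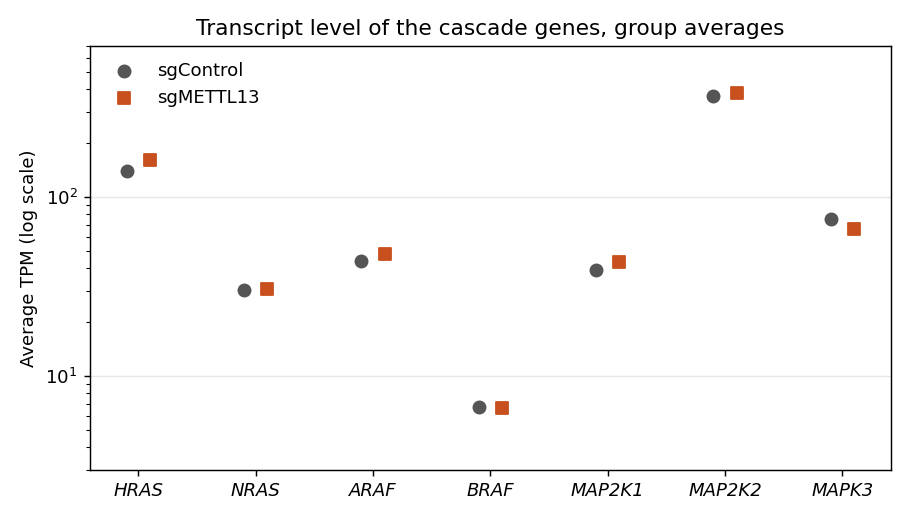
Average TPM (log axis) of the 7 cascade genes in sgControl (circles) and sgMETTL13 (squares), without error bars because the table holds group averages. MAP2K2 is the most abundant at 369.6 and 380.1 TPM and BRAF the least at 6.73 and 6.59 TPM, while neighbours such as ARAF and MAP2K1 are about as close to each other as the groups are.

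The RAS tier is the GTP-loaded switch at the top of the cascade. HRAS (Entrez gene 3265) is protein-coding and lies on the minus strand of chromosome 11, from 532242 to 537287 in GRCh38 in the GENCODE 29 annotation. It averaged 140.4 TPM in sgControl and 161.1 TPM in sgMETTL13 per the authors' deposited table, or 1115 and 1302 estimated reads per library. That is a log2 fold change of 0.28 per the authors' deposited table, with an implied standard error of 0.0784, an implied 95% interval from 0.12 to 0.43 and an adjusted p of 0.0161. The rise was small among the rises of this comparison. Of the 453 genes called higher, 64.9% had a larger fold change than HRAS, and the median called rise was 0.31. In order of adjusted p, HRAS stood at place 444 of the 632 calls. The call also depended on how the groups were scaled. With fold changes centred on the median of genes with at least the median read count, HRAS was still called (0.26, adjusted p = 0.0251). The deposited fold change of abundant genes lies 0.0516 above the log2 ratio of the deposited average reads, and 0.0734 above that of average TPM, and with those ratios over the same standard error the fold change of HRAS was 0.22 (adjusted p = 0.0817) and 0.20 (adjusted p = 0.141). Across all genes the split of calls was 453 higher and 179 lower as deposited, and 294 higher and 384 lower with the ratio of average reads.

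NRAS, the RAS isoform on chromosome 1 (minus strand, 114704469 to 114716894), did not pass the test. The authors' deposited table gave 30.4 TPM in sgControl and 30.5 in sgMETTL13 for NRAS, from 1034 and 1057 reads. Its log2 fold change was 0.08, with an implied 95% interval from -0.07 to 0.23 and an adjusted p of 0.853, per the authors' deposited table. On the TPM scale HRAS was 4.62 times as abundant as NRAS in sgControl and 5.28 times in sgMETTL13, and its share of their summed TPM went from 82.2% to 84.1%. HRAS and NRAS had nearly the same number of reads in sgControl, since the NRAS transcript is longer. Whether their fold changes differ from each other was not tested.

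The RAF tier holds the kinases that RAS recruits. ARAF, on the plus strand of the X chromosome (47561100 to 47571920), averaged 43.8 TPM in sgControl and 48.1 TPM in sgMETTL13 per the authors' deposited table, from 803 and 898 reads. The log2 fold change of ARAF was 0.21 per the authors' deposited table, with an implied 95% interval from 0.02 to 0.40. Over all genes it did not pass the test (adjusted p 0.290). ARAF was the 1 member whose reads, summed over the 3 libraries, were not whole (2408.85 and 2695.01, tolerance 0.005), as is seen where a quantification splits reads among several genes, and GENCODE 29 lists the pseudogenes ARAFP1, ARAFP2 and ARAFP3. It also lists BRAFP1 and MAP2K1P1, while the reads of BRAF and MAP2K1 were whole, and a part of the pseudogenes in the ARAF values was not tested. Its values are uncertain to that extent, and its implied standard error was 1.16 times the median of the 200 genes nearest in read count.

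BRAF, the RAF isoform with the highest known basal kinase activity (chromosome 7, minus strand, 140719327 to 140924928), was the least abundant member. Its average was 6.73 TPM in sgControl and 6.59 TPM in sgMETTL13 per the authors' deposited table, with 402.3 and 401.3 reads. The log2 fold change was 0.05 per the authors' deposited table, with the widest implied interval of the 7, from -0.17 to 0.26, and the ratio of average TPM put it at -0.03. Within RAF, ARAF was 6.51 times as abundant as BRAF in sgControl and 7.30 times in sgMETTL13 on the TPM scale. ARAF held 86.7% of their summed TPM in sgControl and 88.0% in sgMETTL13, a difference with no replicate check.

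The MEK tier was carried by MAP2K2. This gene for MEK2, on the minus strand of chromosome 19 (4090321 to 4124129), averaged 369.6 TPM in sgControl and 380.1 TPM in sgMETTL13 per the authors' deposited table, from 4744 and 4955 reads. It was the most precisely measured member. Its log2 fold change per the authors' deposited table was 0.11, with an implied 95% interval from -0.01 to 0.24 and an adjusted p of 0.506. MAP2K1, the gene for MEK1 on the plus strand of chromosome 15 (66386817 to 66492312), averaged 39.1 TPM in sgControl and 43.2 TPM in sgMETTL13, from 762 and 855 reads, per the authors' deposited table. MAP2K1 had the largest fold change after HRAS, 0.22 with an implied 95% interval from 0.05 to 0.39 per the authors' deposited table, but its adjusted p was 0.180. MAP2K2 was 9.45 times as abundant as MAP2K1 in sgControl and 8.80 times in sgMETTL13 on the TPM scale, and held 90.4% and 89.8% of MEK transcripts. Among the 7 members MAP2K2 alone made up 52.4% of the summed TPM in sgControl and 51.7% in sgMETTL13.

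MAPK3, which encodes ERK1, the last kinase of the cascade, was the 1 member with a fold change below 0. The gene lies on the minus strand of chromosome 16 (30114105 to 30123506). In the authors' deposited table it averaged 75.2 TPM in sgControl and 66.0 TPM in sgMETTL13, from 1048 and 938 reads. The deposited log2 fold change of MAPK3 per the authors' deposited table was -0.11, with an implied 95% interval from -0.26 to 0.05 and an adjusted p of 0.719. Summed TPM was 1.04 times control for the MEK pair, 1.08 times for ARAF with BRAF and 1.12 times for HRAS with NRAS, beside 0.878 times for MAPK3, values without a replicate check.

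**Figure D2:**
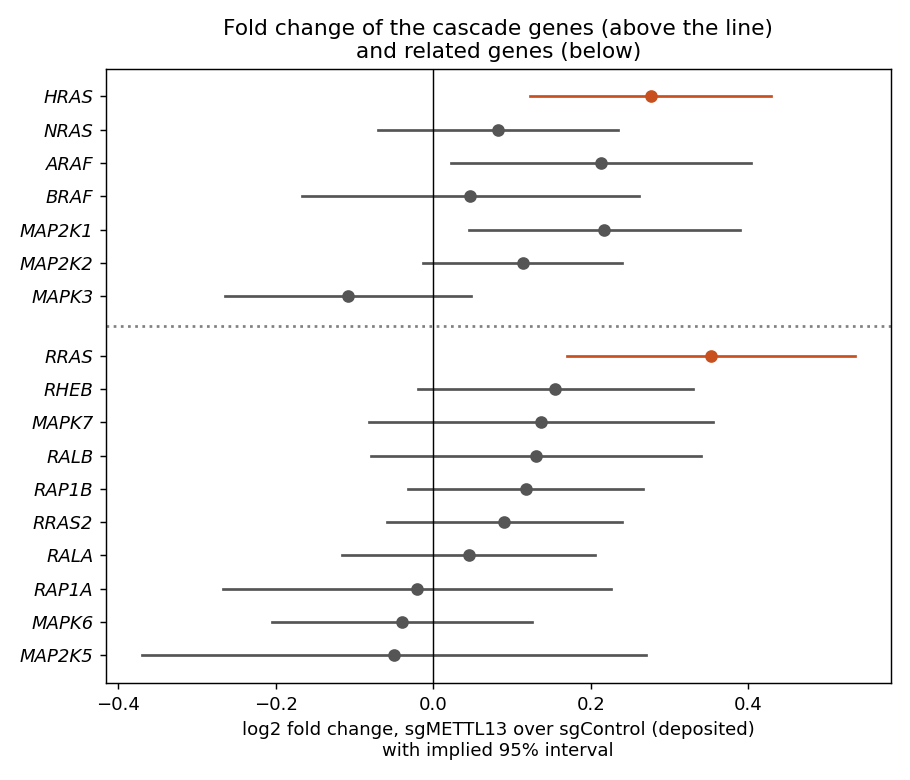
Deposited log2 fold change of sgMETTL13 over sgControl with the implied 95% interval for the 7 cascade genes (above the dotted line) and 10 related GTPase and kinase genes with at least 100 mean reads (below), orange where the adjusted p is under 0.05. HRAS (0.28) and RRAS (0.35) are the called genes, and the intervals of ARAF and MAP2K1 also lie above 0 without a call over all genes.

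In order of TPM the members ran MAP2K2, HRAS, MAPK3, ARAF, MAP2K1, NRAS and BRAF in both groups, as averages of the authors' deposited table. Neighbours in that order were as close as ARAF and MAP2K1 (43.8 and 39.1 TPM in sgControl, per the authors' deposited table), and whether they differ beyond the spread between libraries was not tested. Among all 16617 genes by mean TPM, MAP2K2 stood at percentile 97.7, HRAS at 93.7, MAPK3 at 86.5, ARAF at 80.6, MAP2K1 at 78.6, NRAS at 73.4 and BRAF at 46.2. BRAF was therefore near the middle of the listed genes, while the other 6 lay in their upper part. From reads and FPKM the effective transcript length that the quantification used can be recovered, taking the summed reads of the table as library size, about 1020 bases for HRAS, 4378 for NRAS and 7681 for BRAF in sgControl. It differed between groups by at most 0.0042 on the log2 scale for any member, beside a range from -0.0636 to 0.0487 for the central 95% of those 8309 genes, so no change in the average transcript length of the 7 genes was seen.

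The errors of the members lay close to those of other genes with similar read counts. The implied standard error, which is the deposited fold change over the normal quantile that its p stands for, ran from 0.0644 for MAP2K2 to 0.109 for BRAF. Set against those nearest 200 genes, the members lay between 0.997 times (NRAS) and 1.16 times (ARAF). It was also larger than the error from counting alone, which was 0.0340 for HRAS, 0.0169 for MAP2K2 and 0.0588 for BRAF. With these errors the smallest fold change that would have been called was 1.15-fold for MAP2K2, 1.18-fold for HRAS and NRAS, 1.19-fold for MAPK3, 1.21-fold for MAP2K1, 1.23-fold for ARAF and 1.27-fold for BRAF. Smaller differences were not detectable with these errors, which exceed those of counting alone by 0.0412 (NRAS) to 0.0567 (ARAF) on the log2 scale. The implied intervals of NRAS, MAP2K2 and MAPK3 had bounds between 0.832-fold and 1.18-fold.

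**Figure D3:**
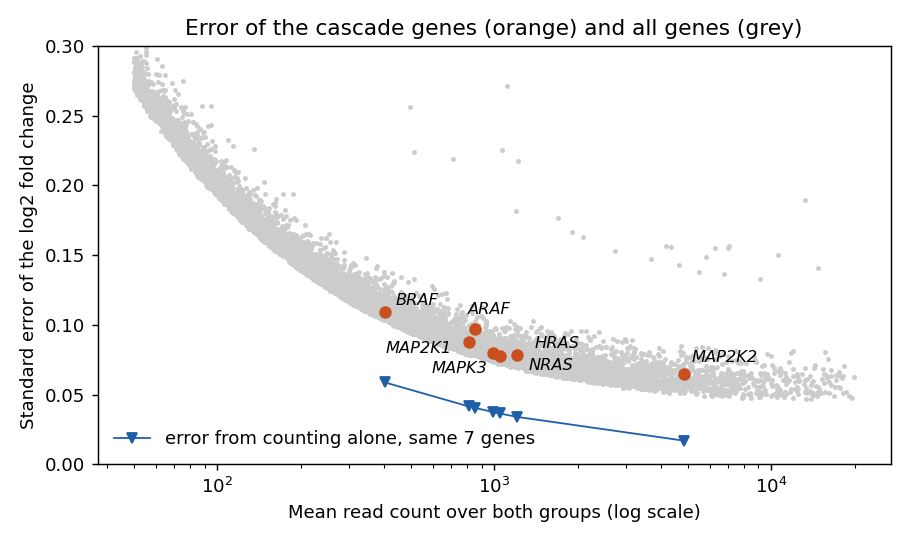
Implied standard error of the log2 fold change against mean read count (log axis) for the 7 cascade genes (orange), all genes in the plotted range (grey) and, for the same 7 genes, the error from counting reads alone (blue triangles). The 7 genes lie within the grey band, above the counting error by 0.0475 in MAP2K2 and by 0.0444 in HRAS.

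Transcript GC content moved with the fold changes in this comparison and differs widely among the members. HRAS (64.7% GC), MAP2K2 (64.3%), MAPK3 (60.9%) and ARAF (58.9%) have GC-rich transcripts, MAP2K1 lies at 48.7%, and BRAF (42.2%) and NRAS (38.4%) are AT-rich, against a median of 50.2% over genes. Among genes with at least the median read count, the median log2 fold change was 0.09 in the GC-richest quartile and -0.05 in the GC-poorest. Once a smooth trend in GC content and length was removed, HRAS had a log2 fold change of 0.13 (adjusted p = 0.609) and 0 of 7 members were called, with 438 of all genes called. NRAS then stood at 0.14, ARAF at 0.14, BRAF at 0.07, MAP2K1 at 0.22 and MAP2K2 at -0.01, with adjusted p values from 0.236 to 0.992. MAPK3 went from -0.11 to -0.21 and did not pass the test either (adjusted p = 0.159). HRAS and NRAS, 0.19 apart as deposited, lay at 0.13 and 0.14 after the trend was removed. Whether the trend is technical or a change in the cells was not tested.

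**Figure D4:**
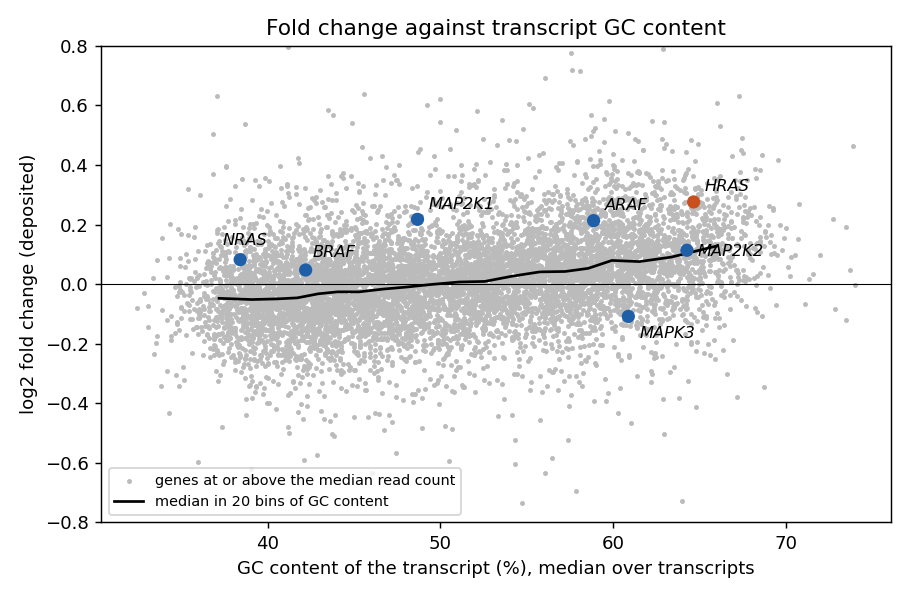
Deposited log2 fold change against the GC content of the transcript (in percent) for genes with a matched transcript and at least the median read count (grey), their median in 20 bins (line), and the 7 cascade genes (orange for HRAS, which was called, blue for the others). HRAS and MAP2K2 lie where the line is above 0, NRAS and BRAF where it is below 0, and MAPK3 lies under the line.

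Among 13 related GTPases and kinases, 1 was called higher and 0 lower per the authors' deposited table. That is 7.69% of the list, beside 3.8% of all genes and 7.04% of genes with at least the median read count. A single call is no result about the list as a whole. RRAS, a RAS-related GTPase that acts on integrin adhesion, rose from 95.9 to 116.4 TPM, a log2 fold change of 0.35 with an adjusted p of 0.00677 per the authors' deposited table. RRAS also has a GC-rich transcript (63.5%), and with the trend removed it was at 0.22 and no longer called (adjusted p = 0.290). The list had a median log2 fold change of 0.09.

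Regulators that load or unload RAS gave 1 call each, both lower, which is 4.76% and 6.67% of the lists, near the 3.8% of all genes and 7.04% of abundant genes called. Of 21 exchange factors and adaptors, GAB2, a docking protein that links receptors to RAS and PI3K, fell from 18.7 to 13.1 TPM (log2 fold change -0.44, implied standard error 0.0896, adjusted p 1.03e-04) per the authors' deposited table. Of 15 GTPase activating proteins and other brakes on RAS, RASAL2, which speeds GTP hydrolysis by RAS, fell from 14.2 to 9.91 TPM (log2 fold change -0.44, implied standard error 0.0805, adjusted p 9.19e-06) per the authors' deposited table. Both calls were also made with the trend removed, at -0.44 and -0.38. The medians of these lists were 0.05 and -0.07. None of 13 enzymes and carriers of RAS lipid modification and transport was called, beside 3.8% of all genes. Of these 13, 2 had an unadjusted p under 0.05, as did 2068 of all 16617 genes. The smallest adjusted p values there belonged to the depalmitoylating enzymes LYPLA2 (0.17, adjusted p 0.150), ABHD17A (0.18, adjusted p 0.310) and LYPLA1 (-0.12, adjusted p 0.609), given as log2 fold changes of the authors' deposited table.

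Of 34 scaffolds, chaperones and regulators of RAF, MEK and ERK, 2 were called higher and 1 lower per the authors' deposited table. That is 8.82% of the list, beside 3.8% of all genes and 7.04% of genes with at least the median read count. Of the 34, 25 had at least the median read count, and the called IQGAP2, at 59 mean reads, did not. With 3 calls this is no result about the list as a whole. LGALS1, a galectin known to bind the membrane clusters of HRAS, rose from 394.4 to 539.5 TPM (log2 fold change 0.52, adjusted p 2.36e-11) per the authors' deposited table. SFN, the epithelial 14-3-3 protein, rose from 3646 to 4430 TPM (0.36, adjusted p 4.43e-07), and IQGAP2, of the IQGAP scaffold family, fell from 1.86 to 0.977 TPM (-0.82, adjusted p 0.0443), per the authors' deposited table. With the trend removed LGALS1 and SFN were still called, at 0.40 and 0.23, and IQGAP2 was not (adjusted p = 0.0879). The median of the list was 0.03.

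Kinase genes downstream of ERK and phosphatase genes were counted as separate lists. None of 8 kinases that ERK activates, or their close relatives, was called, beside 3.8% of all genes. Among 8 genes the absence of a call is no result about the list. Of these 8, 1 had an unadjusted p under 0.05, as did 2068 of all 16617 genes. RPS6KA4 (0.17, adjusted p 0.348), MKNK2 (0.11, adjusted p 0.465) and RPS6KA2 (-0.24, adjusted p 0.747) had the smallest adjusted p values, given as log2 fold changes of the authors' deposited table. Of 14 phosphatase genes 6 were called higher and none lower, with a median of 0.14. The shares called higher were 2.73% of all genes and 5.21% of those with at least the median read count. The 6 calls depended on how the groups were scaled. The 6 were DUSP6 (0.62), DUSP1 (0.61), DUSP5 (0.44), DUSP7 (0.28), DUSP4 (0.17) and the PP2A scaffold subunit PPP2R1A (0.17) per the authors' deposited table. DUSP6, the cytoplasmic ERK phosphatase that ERK itself induces, went from 48.2 to 70.3 TPM with an adjusted p of 1.82e-14 per the authors' deposited table. With the trend removed DUSP4 and PPP2R1A were no longer called (adjusted p = 0.0772 and 0.383). When the longest transcript of each gene was used for the trend, an alternative chosen after seeing the data, DUSP4 was called (0.17, adjusted p = 0.0317). PPP2R1A was not (adjusted p = 0.0838). With the ratios of average reads, TPM or FPKM, or with fold changes centred on the median, 4 phosphatase genes were called, all higher. Counting calls under these scalings was also chosen after seeing the data.

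A published score of pathway output has 10 transcripts, and 4 of them were called higher and 0 lower per the authors' deposited table, with a median of 0.17, beside 2.73% of all genes called higher and 5.21% of those with at least the median read count. Besides DUSP6 and DUSP4, which are also in the phosphatase list, these were SPRY4, a feedback inhibitor of RAS activation (0.48, from 19.1 to 25.3 TPM), and the receptor kinase EPHA2 (0.29, from 277.8 to 322.5 TPM), per the authors' deposited table. With the ratios of average reads or FPKM, or centred on the median, 3 of the 10 were called higher and 0 lower. The ratio of average TPM gave 3 higher and 1 lower. Of the 10 output transcripts, 7 had a fold change above 0, as did 8339 of 16617 genes. With the trend removed 3 were called higher and 0 lower, and 4 higher and 0 lower when the longest transcript was used. That the ERK-induced genes rise in these libraries was known when the lists were chosen, so their counts are no independent evidence. None of the MEK, RAF and ERK1 members was called, beside 3.8% of all genes and 7.04% of those with at least the median read count. With so few genes the absence of a call is no result about these kinases. A difference between them and the output transcripts was not tested.

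**Figure D5:**
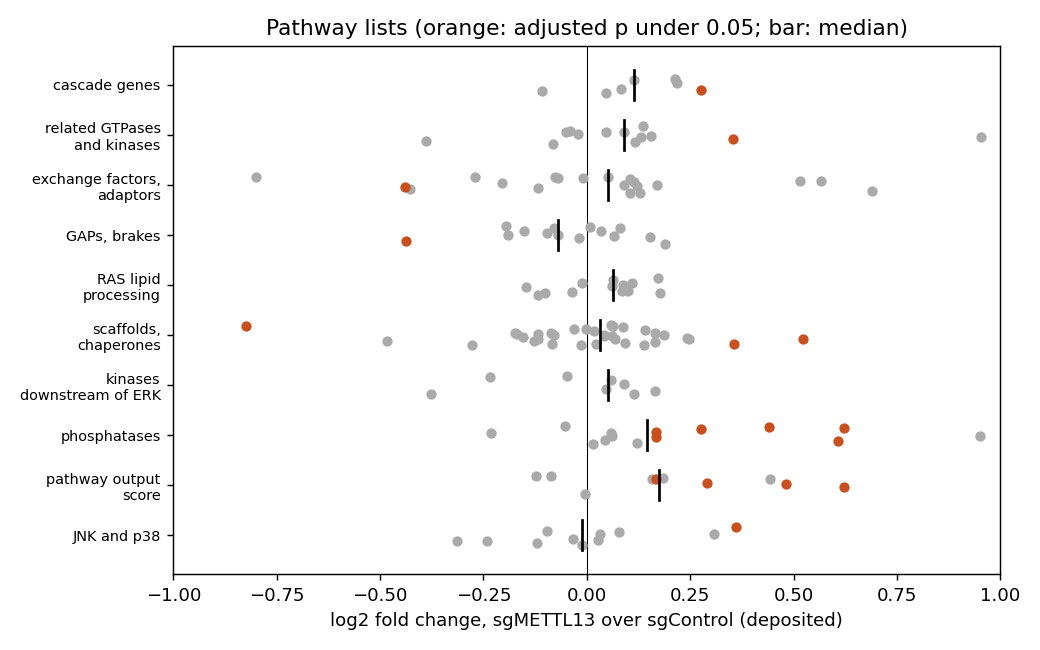
Deposited log2 fold change of each gene (points, orange where the adjusted p is under 0.05) in the cascade and 9 pathway lists, with the median of each list as a bar; 2 genes with a fold change beyond 1 in size are outside the axis. Called genes are 1 of 7 in the cascade, 6 of 14 among phosphatases and 4 of 10 in the output score.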

How the data were processed

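RNA of T3M4 cells was extracted with TRIzol and sequenced by a company, per the labels' protocols. The submitters' processing notes name RSEM 1.2.12, DESeq2, HISAT2 2.0.4 and Bowtie2 2.2.5, without their roles, and the builds hg38 and GRCh38.p12. The guide RNA in the title gave each sample its group, and the labels tie columns named KD to sgMETTL13 and WT to sgControl.

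Per the file headers the 1 table holds, as deposited by the authors, group averages of TPM, FPKM and estimated counts (expected counts, not whole for 21.4% of genes), a log2 ratio, and a p-value with its q-value. The latter is called the adjusted p, since below 0.9 it lies within about 1.2% of Benjamini-Hochberg values; which test gave it is not stated in the sources used here. With no values per library no count model was fitted, and the depth of single libraries is unknown. The implied standard error assumes a normal test and adds no information.

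GC content and length are medians over the basic transcripts of GENCODE 29, matched by Entrez ID for 97.6% of genes. The trend was fitted with splines of 4 degrees of freedom each, weighted by the inverse square of the implied standard error, and tested on simulated data. Ratios of TPM and FPKM used a pseudocount of 0.1. Alternatives were other thresholds, adjustments, filters and scalings. The members, lists and markers were chosen with earlier results of these data known. Named genes are the members, METTL13 and, in each list, the called genes or, without one, the 3 with the smallest adjusted p; SOX9, COL1A1 and CD68 were named outside that rule. Of the list of related GTPases and kinases, 2 genes are not reported here. No protein sequence was used here. The work used Python 3.11.15 with scipy 1.17.1, numpy 2.4.6, patsy 1.0.2, pandas 2.3.3 and matplotlib 3.10.9.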

Additional observations from a re-analysis of the deposited data

How the results depend on the processing

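No paired analysis was possible because the table holds group averages, and for the same reason no library could be left out. The number of called genes was 632 as deposited, 409 at an adjusted p under 0.01 and 180 with Bonferroni adjustment. In the cascade the 1 call, HRAS (0.28), was lost (0 called) at an adjusted p under 0.01, with Bonferroni adjustment, without the GC content and length trend (0.13, and 0.13 with the longest transcript of each gene, an alternative chosen after seeing the data) and with the ratios of average reads (0.22), TPM (0.20) and FPKM (0.22); its adjusted p ran from 0.0085 to 1 over all settings. HRAS kept its sign in all of them. Its call was kept at an adjusted p under 0.1, with Benjamini-Hochberg values recomputed, among genes with at least the median read count, and with fold changes centred on the median (0.26). BRAF changed sign with the ratios of average reads (-0.0036), TPM (-0.028) and FPKM (-0.0082), and MAP2K2 without that trend (-0.0099, and -0.019 with the longest transcript). In the other pathway lists, 15 of 137 genes were called (10.9%, beside 3.8% of all genes), and 9 with Bonferroni adjustment. The ratio of average TPM gave 224 genes higher and 521 lower, and that of FPKM 281 and 351; counting calls under these scalings was chosen after seeing the data. The cause of these shifts was not tested. Paralog shares were the same from FPKM, but as shares of reads, which are not per length, HRAS held 51.9% and 55.2% (sgControl and sgMETTL13) of the RAS pair and MAP2K2 86.2% and 85.3% of the MEK pair.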

Other observations

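In the parallel stress kinase cascades, 1 of 11 JNK and p38 pathway genes was called, and it was higher. The share is 9.09% of the list, beside 3.8% of all genes and 7.04% of genes with at least the median read count. With a single call this is no result about these cascades as a whole. MAP2K3, the kinase that activates p38, rose from 130.7 to 159.2 TPM, a log2 fold change of 0.36 with an implied standard error of 0.0676 and an adjusted p of 1.57e-05 per the authors' deposited table, and it was still called without the GC content and length trend (0.29, adjusted p = 0.00197). Its reads were not whole, so part of them may be divided with related sequences. The median log2 fold change of this list was -0.01.

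GENCODE 29 places protein-coding genes over 3 of the 7 cascade genes on the opposite strand. NDUFB2, a subunit of respiratory complex I, shares 3464 bases of its span with BRAF and had 406.5 mean reads and a log2 fold change of 0.20 per the authors' deposited table (adjusted p 0.471). SNAPC5, of the small nuclear RNA activating complex, shares 2178 bases with MAP2K1 (74.3 mean reads, log2 fold change -0.06, per the authors' deposited table), and SYN1, a synapsin gene, shares 23 bases with ARAF (129.2 mean reads, log2 fold change 0.11, per the authors' deposited table). These are overlaps of whole gene spans, and the overlap of exons was not computed. Whether strand was used in counting is not stated in the sources used here. Whether reads from the shared bases entered the counts of these genes was not tested. HRAS, NRAS, MAP2K2 and MAPK3 have no overlapping gene there.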
